A study of Mus musculus with 12 samples.

Results

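Cd274 and Pdcd1lg2 encode PD-L1 and PD-L2, the ligands of the checkpoint receptor PD-1, and were described across 12 mouse RNA sequencing libraries. They were chosen by gene name, as 2 of the 11669 genes in the deposited table. The libraries fell into 4 groups of 3, each collected after 24 h of treatment. One group received PBS (saline), one NP@M, one NP-D@M and one NP-D@MP, so D was present in the last 2 groups and P only in the last. The labels do not spell out NP, D, M or P. The series title speaks of a nanodrug carrying an engineered cancer cell membrane, aimed at cyclin-dependent kinases (CDKs) and paired with PD-L1 antibody immunotherapy. All libraries were labelled as immune cells of marrow with the line name TAMC, a name the labels do not explain, whereas their extraction protocol speaks of retinas. No label ties the 3 libraries of a group to separate cultures or animals, and p-values here reflect library-to-library spread, which may be technical.

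PD-L1 and PD-L2 are membrane proteins of the B7 family that bind PD-1 on activated T cells and lower T cell receptor signalling. PD-L1 also binds CD80, and PD-L2 also binds RGMb. In macrophages and dendritic cells, transcription of Cd274 is classically raised by interferon gamma through JAK1, JAK2 and IRF1, and by NF-kB and AP-1. Pdcd1lg2 is best known as a target of interleukin 4 acting through STAT6, and its expression is largely limited to myeloid cells. CDKs bear on the pathway in several ways. CDK5 loss is known to raise the repressor IRF2BP2 and lower PD-L1 in tumour cells, and CDK4 acts on PD-L1 protein turnover through SPOP.

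The genes lie next to each other on chromosome 19 of GRCm38, on the plus strand. Cd274 (ENSMUSG00000016496) occupies chr19:29367455-29388095 and Pdcd1lg2 (ENSMUSG00000016498) chr19:29410919-29471157, with 22.8 kb between them. In GENCODE release M21, Cd274 has 7 exons and 870 coding bases for 290 residues. The coding transcript used for Pdcd1lg2 has 6 exons and 741 coding bases for 247 residues. The exons of Cd274 overlap an antisense gene, AC119228.1, which was not analysed here. Whether reads were counted by strand is not given in the sources used here, so reads of the pair cannot be told apart. No other gene overlaps the exons of Pdcd1lg2.

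The sequences just upstream of the RefSeq starts are shown because they differ between the genes. Whether the known regulators of the ligands act in these stretches was not tested. The sequences are from RefSeq on GRCm38.p6, plus strand. The first is the stretch before the start of Cd274 at chr19:29367391-29367437, with a GC box (GGGCGG) in capitals. The second, at chr19:29367352-29367381, holds a match to an interferon regulatory factor motif (GAAANNGA, read on the minus strand) in capitals. The third is chr19:29410669-29410918 upstream of Pdcd1lg2, with a match to an NF-kB motif (GGG and CC with 5 bases between) and a match to a STAT6 motif (TTC and GAA with 4 bases between) in capitals.
Cd274, before the start: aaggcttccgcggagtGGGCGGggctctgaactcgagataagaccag
Cd274, around the interferon regulatory factor match: actgggtggctTCGGTTTCacagacagcgg
Pdcd1lg2, upstream: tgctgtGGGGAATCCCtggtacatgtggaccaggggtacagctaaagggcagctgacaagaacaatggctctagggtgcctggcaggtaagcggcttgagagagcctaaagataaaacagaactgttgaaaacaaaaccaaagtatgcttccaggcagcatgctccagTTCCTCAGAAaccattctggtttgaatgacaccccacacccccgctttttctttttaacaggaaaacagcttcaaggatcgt

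In the 250 bases before each start, searched on both strands, Cd274 held the interferon regulatory factor motif once, 75 bases before its start, and the GC box once, 31 bases before it. Pdcd1lg2 held neither. It held the STAT6 motif once, 82 bases before its start, and the NF-kB motif once, 244 bases before it, and Cd274 held neither of those. Among 32851 RefSeq mouse promoters of the same length, 18.1% held the interferon regulatory factor motif, 32.7% the GC box, 5.85% the STAT6 motif and 45.8% the NF-kB motif. Neither window held the STAT motif TTCNNNGAA, found in 7.02% of promoters, or the AP-1 motif TGANTCA, found in 6.75%. The Cd274 window had 11 CG dinucleotides and the Pdcd1lg2 window 3, against a median of 6 over all promoters. These matches are letters in a window and say nothing about binding.

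The scale of the deposited values bears on every level below. The values are FPKM (fragments or reads scaled by gene length and by a library size), and reads could be recovered from them, 14444950 to 17338264 per library. The library sizes the authors divided by were 2.19 to 2.36 times the recovered reads in the 6 libraries without D and 0.468 to 0.553 times in the 6 with D. Each comparison is therefore given on the deposited scaling and on recovered read totals (RPKM, the recovered reads scaled by gene length and by the sum of recovered reads of the library). Moving from the first to the second shifts NP-D@M against NP@M by -2.17 on the log2 scale, and NP-D@MP against NP-D@M by -0.10. The 10 most abundant genes took 10.1 to 12.4% of the reads without D and 33.5 to 35.4% with D. Of the libraries without D, 2 stood apart: PBS replicate 3 had 9.31% of genes at 0 and NP@M replicate 2 had 9.11%, against 2.65 to 2.96% in the others.

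Cd274 was an abundant transcript in every library. In PBS its levels were 59.2, 74.3 and 121 FPKM, with a mean of 84.7 ± 32.0 (SD, n = 3), and in NP@M they were 68.9, 110 and 72.1 FPKM, with a mean of 83.7 ± 23.0. In NP-D@M they were 61.0, 65.5 and 58.9 FPKM, with a mean of 61.8 ± 3.39, and in NP-D@MP 41.3, 41.5 and 45.2 FPKM, with a mean of 42.7 ± 2.21. The highest values of the 12 were those of the 2 libraries that stood apart. All 3 NP-D@MP libraries were below all 3 NP-D@M libraries, as in 6.14% of the 8615 genes tested. NP-D@M overlapped PBS and lay below all 3 NP@M libraries, an order whose share over all genes was not counted. Without the 2 libraries that stood apart, the means of PBS and NP@M were 66.8 and 70.5 FPKM (n = 2 each).

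The reads behind these values were fewer with D. Cd274 had 7373 to 14047 reads per library without D, 1861 to 1909 in NP-D@M and 1224 to 1309 in NP-D@MP. Scaled by recovered read totals, Cd274 levels were 138, 175 and 264 RPKM in PBS, and 161, 255 and 169 in NP@M. They were 33.7, 31.6 and 31.0 in NP-D@M, and 20.8, 20.2 and 21.2 in NP-D@MP. On this scale the 6 libraries with D were all below the 6 without, as in 59.5% of the 8615 genes tested.

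Pdcd1lg2 was the rarer ligand transcript throughout. Its levels were 6.86, 6.57 and 5.42 FPKM in PBS (6.28 ± 0.760), and 7.04, 8.83 and 7.85 FPKM in NP@M (7.91 ± 0.899). With D they were 2.95, 1.32 and 1.30 FPKM in NP-D@M (1.86 ± 0.949), and 0.973, 1.64 and 0.695 FPKM in NP-D@MP (1.10 ± 0.486). Every library with D was below every library without D, an order found in 42.3% of the tested genes, while NP-D@M and NP-D@MP overlapped. On recovered read totals the ranges were 11.9 to 16 RPKM in PBS, 16.5 to 20.4 in NP@M, 0.636 to 1.63 in NP-D@M and 0.325 to 0.800 in NP-D@MP.

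These Pdcd1lg2 levels rest on 282 to 511 reads per library without D, but on 42, 17 and 19 reads in NP-D@M and 14, 22 and 9 in NP-D@MP. The half-width of the 95% exact Poisson interval was 8.8 to 11.9% of the value without D and 31.5 to 72.1% with D. These intervals cover counting error only. In order of mean FPKM, Cd274 ran from PBS through NP@M and NP-D@M to NP-D@MP, and Pdcd1lg2 from NP@M through PBS and NP-D@M to NP-D@MP. Each neighbouring pair in either order is compared below.

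**Figure D1:**
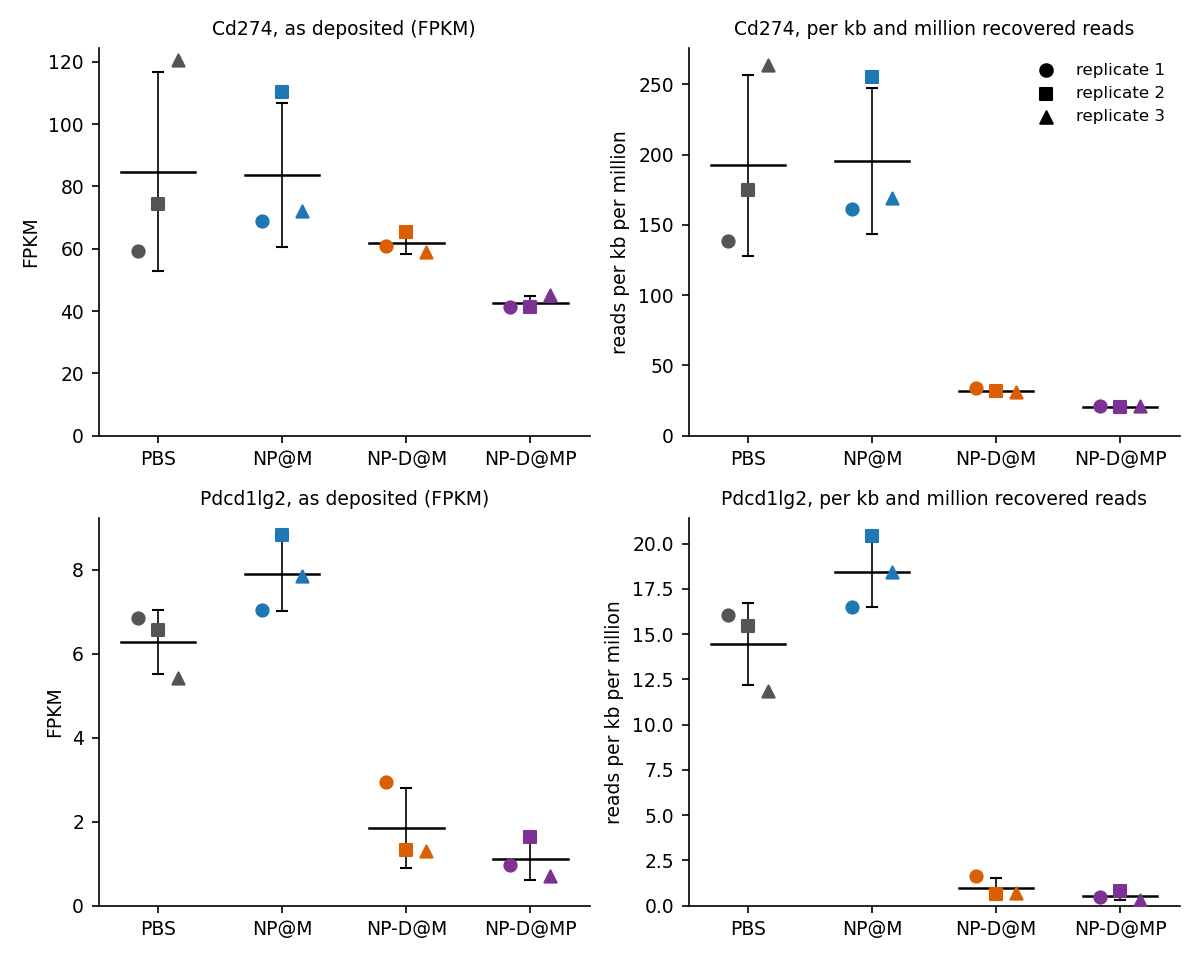
Levels of Cd274 (top) and Pdcd1lg2 (bottom) in each library, by treatment group. The left panels give the deposited FPKM and the right panels RPKM from recovered read totals; points are libraries, horizontal lines are group means and error bars are SD (n = 3). Pdcd1lg2 was lower in every library with D on either scale, from 1.30 to 2.95 FPKM in NP-D@M, while Cd274 separated the libraries with and without D only on recovered read totals.

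A rank within each library does not depend on the library's scaling. Among the 8615 tested genes, those with at least 1 FPKM in at least 3 libraries, Cd274 stood at the 95.3rd to 98.5th percentile in the libraries without D. It stood at the 88.0th to 88.6th in NP-D@M and the 84.2nd to 85.4th in NP-D@MP. Pdcd1lg2 stood at the 62.1st to 75.2nd percentile without D, the 39.0th to 51.8th in NP-D@M and the 27.7th to 42.8th in NP-D@MP. Both genes therefore ranked lower in all 6 libraries with D than in any of the 6 without, as did 32.5% of the tested genes. Cd274 ranked lower in all 3 NP-D@MP libraries than in any NP-D@M library, as did 7.52% of them.

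The particle without D was compared with PBS. Neither ligand passed the test, and 0.0116% of the tested genes were called in this comparison (limma on log2(FPKM + 1), Benjamini-Hochberg adjusted p below 0.05). For Cd274 the log2 fold change was 0.01 (SE 0.26, 95% interval -0.56 to 0.59, limma adjusted p = 1). For Pdcd1lg2 it was 0.29 (SE 0.24, interval -0.23 to 0.81, limma adjusted p = 1). Pdcd1lg2 was higher in all 3 NP@M libraries than in all 3 PBS libraries, an order shown by 1.74% of the tested genes. The sign for Cd274 turned when one of PBS replicate 1, PBS replicate 2 or NP@M replicate 2 was left out, to -0.21, -0.05 and -0.20.

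NP-D@M against NP@M compares the membrane particle with and without D. Pdcd1lg2 was lower with D on every scaling tried, while the call for Cd274 depended on the scaling. On the deposited scaling 91.2% of the tested genes were called, 46% lower and 45.2% higher, so a call alone sets no gene apart. Pdcd1lg2 fell by 1.68 on the log2(FPKM + 1) scale (SE 0.24, interval -2.21 to -1.16, limma adjusted p = 5.47e-05), which is 3.21-fold lower on that scale. The fall was 3.32 on recovered read totals, where 61.7% of tested genes were called lower and 9.12% higher. The limma adjusted p ranged from 8.62e-08 to 0.000459 over the alternatives tried. Its change stood, among those of all tested genes, at the 16.5th percentile on the deposited scaling and the 11.8th on recovered read totals.

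Cd274 differed between NP-D@M and NP@M by -0.40 on the deposited scaling (SE 0.26, interval -0.98 to 0.18), which did not pass the test (limma adjusted p = 0.16). On recovered read totals it was lower by 5.8-fold, a log2 fold change of -2.54 (interval -3.08 to -1.99, limma adjusted p = 2.51e-06). Over the alternatives tried the adjusted p ranged from 3.58e-08 to 0.997, the last with the medians of the libraries made equal, where the log2 fold change was 0.000994 and 36.9% of tested genes were called lower. Cd274 was also called lower after quantile normalization (33.9% of tested genes lower), with voom on recovered reads (61.2%) and on recovered read totals without the 2 libraries that stood apart (67.3%). The median of all tested genes was 0.16 on the deposited scaling and -1.47 on recovered read totals. Relative to that median, Cd274 stood at -0.56 and -1.07, and Pdcd1lg2 at -1.84 and -1.86. The rescaling moves every value by the same factor, and the added 1 FPKM compresses low genes, the median gene included, so a change in this distance between the scales is not read as a difference between the ligands. In a bulk library, fewer cells of a type and less RNA of the gene per cell cannot be told apart.

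NP-D@MP against NP-D@M compares the particles with and without P. The values of both transcripts were lower with P, and neither passed the test after adjustment. For Cd274 the log2 fold change was -0.52 (SE 0.26, interval -1.10 to 0.05, limma adjusted p = 1, unadjusted p = 0.0709). All 3 NP-D@MP libraries were below all 3 NP-D@M libraries, an order that 6.14% of tested genes showed. The value was at the 2.48th percentile of the changes of all tested genes. By read totals it was -0.61 (limma unadjusted p = 0.0321, adjusted p = 1). With the 2 libraries that stood apart left out of the fit it was again -0.52, with a limma adjusted p of 0.13 and 0.197% of tested genes called, and over all alternatives the adjusted p ranged from 0.107 to 1. For Pdcd1lg2 the value was -0.42 (SE 0.24, interval -0.94 to 0.11, limma adjusted p = 1), and the groups overlapped. Of the tested genes 0% were called in this comparison, and 428 had an unadjusted limma p below 0.05, against 280 on recovered read totals.

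Both particles with D were also set against PBS, comparisons that share the PBS libraries and, for NP-D@M, its own libraries with the comparison above. In NP-D@MP both ligands were lower than in PBS, in a comparison where 91.5% of tested genes were called, 45.8% lower and 45.7% higher. Cd274 fell by 0.91 (SE 0.26, interval -1.49 to -0.33, limma adjusted p = 0.00669), a 1.88-fold lower level on the log2(FPKM + 1) scale. With library medians made equal, where 37.4% of tested genes were called lower, the value was -0.53 with a limma adjusted p of 0.0835, and over all alternatives the adjusted p ranged from 8.1e-09 to 0.0835. Pdcd1lg2 fell by 1.81 (SE 0.24, interval -2.34 to -1.29, limma adjusted p = 3.1e-05).

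On recovered read totals the values against PBS were -3.10 for Cd274 and -3.33 for Pdcd1lg2, with 62.4% of tested genes called lower and 9.01% higher. In NP-D@M against PBS, where 90.4% of tested genes were called on the deposited scaling (45.8% lower, 44.6% higher), Pdcd1lg2 fell by 1.39 (SE 0.24, limma adjusted p = 0.000227). The Cd274 value there was -0.39 (interval -0.96 to 0.19, limma adjusted p = 0.175). Without PBS replicate 1 it was -0.61, past the threshold at a limma adjusted p of 0.0481, and without PBS replicate 3 it was -0.10 (adjusted p = 0.656). The value was -2.49 on recovered read totals, with 61.6% of tested genes called lower and 8.94% higher. It was also called lower after quantile normalization (33.5% of tested genes lower), with voom (61.2%) and on recovered read totals without both libraries that stood apart (67.9%).

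**Figure D2:**
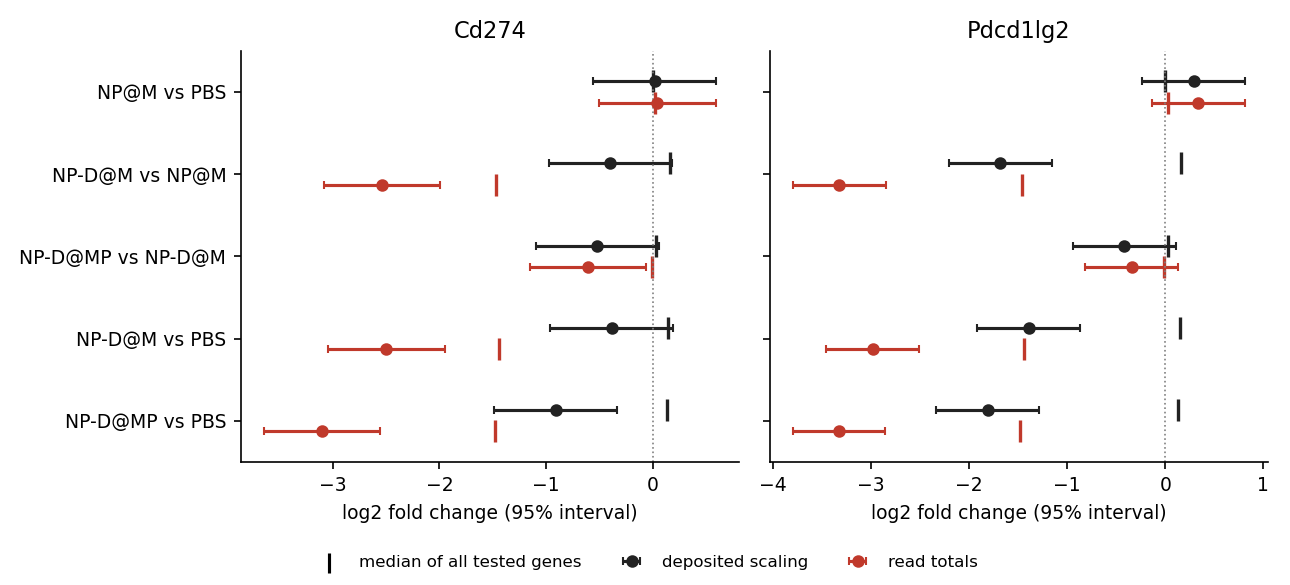
Log2 fold change of Cd274 (left) and Pdcd1lg2 (right) in 5 comparisons, on the deposited scaling (black) and on recovered read totals (red); bars are 95% intervals of limma and vertical ticks the median of all tested genes. Wherever D was set against its absence, in 3 comparisons, Pdcd1lg2 was left of the median on either scaling, and the Cd274 interval crossed 0 on the deposited scaling in 2 of them.

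The ratio of the transcripts within a library is free of the library's scaling. Per length, Cd274 exceeded Pdcd1lg2 by 8.63, 11.3 and 22.2 times in PBS, and by 9.79, 12.5 and 9.18 times in NP@M. With D the ratio was 20.6, 49.7 and 45.2 in NP-D@M, and 42.5, 25.3 and 65.0 in NP-D@MP. Group means were 14.1 ± 7.20, 10.5 ± 1.76, 38.5 ± 15.7 and 44.3 ± 20.0 (SD, n = 3). The libraries with D were above those without except for 1 overlap: PBS replicate 3, which stood apart, at 22.2 was above NP-D@M replicate 1 at 20.6.

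Between all 6 libraries with D and all 6 without, the log2 of Pdcd1lg2 over Cd274 differed by -1.73 (2-sided exact permutation p = 0.00433, adjusted over 6 comparisons 0.0260). The smallest p that test can give is 0.00216. This pooled test joins NP-D@M with NP-D@MP and PBS with NP@M. In NP-D@M against NP@M the difference was -1.79 and in NP-D@MP against PBS -1.67, each with an exact permutation p of 0.1 (adjusted 0.2), the smallest that 3 against 3 allows. In NP-D@M against PBS, where the groups overlap, it was -1.47 (exact permutation p = 0.2, adjusted 0.3). In NP-D@MP against NP-D@M it was -0.20 (exact permutation p = 0.7). Pdcd1lg2 was thus lower relative to Cd274 with D, and the differences within the pairs of 3 could not reach the threshold. How often other pairs of genes shift their ratio with D was not counted. With 91.2% of tested genes called in NP-D@M against NP@M, the shift is not read as particular to the ligands.

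**Figure D3:**
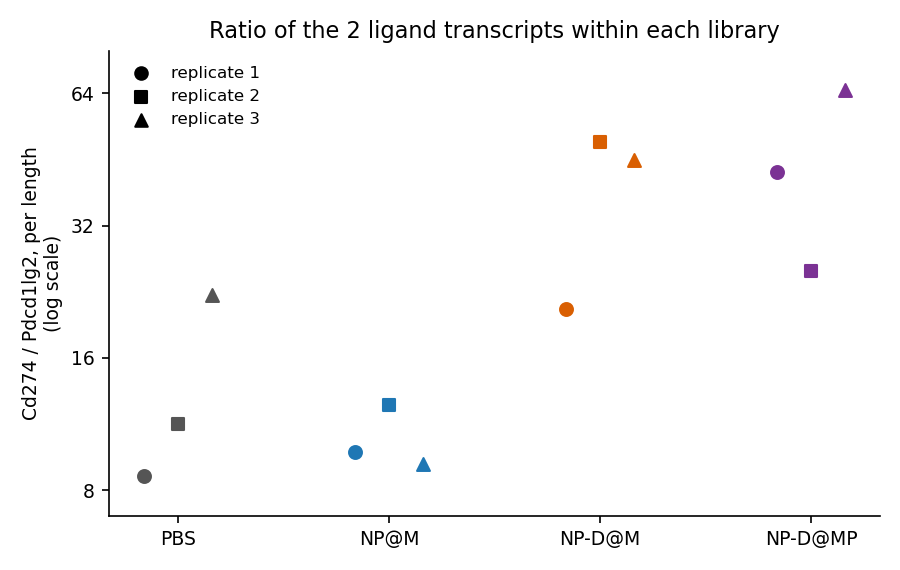
Ratio of Cd274 to Pdcd1lg2 per length in each of the 12 libraries, on a log axis, by treatment group. Points are libraries; those without D lie between 8.63 and 22.2 and those with D between 20.6 and 65.0, with 1 overlap.

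Of the other partners of the ligands, Pdcd1 and Rgmb had few reads and Cd80 was tested. Pdcd1, which encodes PD-1, had 19, 16 and 11 reads in PBS, 16, 17 and 15 in NP@M and 0 in all 6 libraries with D. A count of 0 allows up to 3 reads, and the gene was too low to be tested. Rgmb was also too low, at 0.622 to 0.993 FPKM without D and 0 to 0.133 with D. Cd80, the other partner of PD-L1 and itself a costimulatory ligand, averaged 8.31 ± 1.59 FPKM for NP@M libraries against 14.2 ± 1.01 for NP-D@M libraries. Its log2 fold change was 0.72 (SE 0.17, limma adjusted p = 0.00224) on the deposited scaling and turned to -1.27 on recovered read totals.

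Listed genes of the interferon gamma pathway upstream of Cd274 were mostly lower with D. The list also holds negative regulators of the pathway and genes of type I interferon signalling, which the counts do not separate. Of its 20 genes, of receptor, JAK-STAT and IRF steps, 16 were tested. In NP-D@M against NP@M 13 were lower, 2 higher and 1 not called, in a comparison with 46% of all tested genes lower and 45.2% higher. Their median log2 fold change was -1.74, against 0.16 over all tested genes. By recovered read totals 15 were lower and 1 higher, with a median of -3.47 against -1.47, and 61.7% and 9.12% of all tested genes. Irf1, the factor that acts directly on Cd274, was at 6.61, 5.05 and 4.22 FPKM in PBS and 6.15, 4.51 and 6.50 in NP@M. It was at 0.116, 0.192 and 0.709 FPKM in NP-D@M and 0.374, 0.185 and 1.37 in NP-D@MP. Every library with D was below every library without D, an order found in 42.3% of the tested genes. The log2 fold change of NP-D@M against NP@M was -2.34. The Irf1 levels with D rest on 4, 6 and 25 reads in NP-D@M and 13, 6 and 43 in NP-D@MP.

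Receptor and kinase genes were lower too. Ifngr1, a receptor chain, went from 32.7 ± 3.29 to 2.21 ± 0.831 FPKM between NP@M and NP-D@M (log2 fold change -3.42), and the kinase gene Jak2 from 18.8 ± 8.81 to 2.56 ± 0.462 (-2.39). The phosphatase genes Ptpn6 and Ptpn2, negative regulators of the pathway, were lower by log2 fold changes of -3.47 and -1.60. Irf7, an interferon-induced factor, was higher on either scaling: it rose from 13.4 ± 1.58 to 219 ± 15.1 FPKM, a log2 fold change of 3.94, and 1.84 on recovered read totals.

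Other targets of interferon gamma were called in both directions, in shares near those of all tested genes (46% lower, 45.2% higher). Of 16 listed, 7 were tested, of which 4 were lower and 3 higher with D (median -0.46), and on recovered read totals 5 were lower, 2 were not called and 0 were higher (median -1.55). The chemokine gene Cxcl16 rose by 2.62 and the guanylate-binding protein gene Gbp2 by 1.27 on the deposited scaling, while the GTPase genes Gbp7 and Irgm1 fell by 1.37 and 1.40. By read totals Gbp2 was at -0.62, the opposite sign, and Cxcl16 at 0.60 did not pass the test (limma adjusted p = 0.0592).

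The interleukin 4 arm lies upstream of Pdcd1lg2. Of 7 genes of its receptors and STAT6 signalling 6 were tested, 3 lower and 3 higher, which is the split of all tested genes (median -0.23 against 0.16), and on recovered read totals 3 were lower, 0 higher and 3 not called. Stat6 itself was at 34.7, 35.2 and 29.5 FPKM in PBS and 33.8, 31.9 and 37.1 in NP@M. It was at 8.67, 7.39 and 7.78 FPKM in NP-D@M and 9.04, 8.39 and 9.47 in NP-D@MP. All Stat6 values with D were below all those without D, as in 42.3% of the tested genes. Il4ra, the receptor chain, ranged from 9.50 to 21.2 FPKM without D and from 1.72 to 3.18 with D. In NP-D@M against NP@M the log2 fold changes were -1.98 for Stat6, -2.52 for Il4ra and -2.43 for Ptpn1, a phosphatase gene. Il2rg, the shared cytokine receptor gamma chain, was higher by 2.48 on the deposited scaling and at 0.36 did not pass the test on recovered read totals (limma adjusted p = 0.183).

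Of 12 macrophage genes known as STAT6 targets, all tested, 9 were higher and 3 lower in NP-D@M than in NP@M on the deposited scaling (median 3.30), where 45.2% of all tested genes were higher. On recovered read totals 6 were higher, 3 lower and 3 not called (median 1.13), where 9.12% of all tested genes were higher, and after quantile normalization 4 were higher, 2 lower and 6 not called. Arg1, which encodes arginase, rose from 399 ± 53.7 to 4289 ± 237 FPKM, a log2 fold change of 3.43, and 1.26 on recovered read totals. The lectin genes Mgl2 and Clec10a rose by 4.34 and 3.70, and by 2.19 and 1.61 on recovered read totals. Irf4, a factor that acts downstream of STAT6, fell from 8.35 ± 3.03 to 0.121 ± 0.0260 FPKM, a log2 fold change of -3.01. Pdcd1lg2 and Irf4 were thus both lower with D, and the lectins and Arg1 higher, on either scaling.

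Listed genes of the NF-kB and AP-1 factors that act on Cd274 were mostly lower. The list also holds the genes of an NF-kB inhibitor and of a kinase of that pathway, which the counts do not separate. Of 14 tested, 10 were lower, 3 higher and 1 not called (median -1.73), with 46% of all tested genes lower. On the other scaling 12 were lower and 0 higher (median -3.33), with 61.7% of all tested genes lower. The NF-kB subunit genes Rel, Nfkb1 and Relb had log2 fold changes of -2.17, -2.10 and -1.92, and Fosl2, an AP-1 subunit gene, fell from 17.5 ± 1.56 to 0.364 ± 0.0546 FPKM.

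Further transcription regulators linked to Cd274 were lower in 8 of 10 tested genes (median -2.48), against 46% of all tested genes. Hif1a, the hypoxia factor, was lower by a log2 fold change of -2.93, whereas Epas1 was higher by 2.69. Cdk5 and Irf2bp2, the kinase and the repressor linked to PD-L1 in tumour cells, moved in opposite directions on the deposited scaling. Irf2bp2 was at 11 to 29.8 FPKM without D and 1.86 to 3.63 with D (log2 fold change -2.58 in NP-D@M against NP@M). Cdk5 was at 3.51 to 5.58 FPKM without D and 17.6 to 35.9 with D (2.16). Irf2bp2 was lower still on recovered read totals, at -4.36, where the Cdk5 value of 0.22 did not pass the test (limma adjusted p = 0.436).

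Genes listed for AU-rich element binding and message decay, a known route of Cd274 decay, were lower in 7 of 8 tested and higher in 1 (median -1.87), against the same 46% lower. On recovered read totals 7 were lower and 1 not called, with 61.7% of all tested genes lower. After quantile normalization 4 were lower and 4 not called, with 33.9% of all tested genes lower. Zfp36l2 and Zfp36l1, members of the tristetraprolin family, fell by 4.41 and 3.94, Khsrp by 3.19, and Cnot1, the scaffold of the CCR4-NOT deadenylase, by 2.54. The SE of the list genes named by their log2 fold change ran from 0.14 (Pvr) to 0.41 (Zfp36l1) on the deposited scaling, and each gene described as higher, lower, risen or fallen passed limma at an adjusted p below 0.05. These lists were chosen with earlier results of these data known, and their counts describe them.

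**Figure D4:**
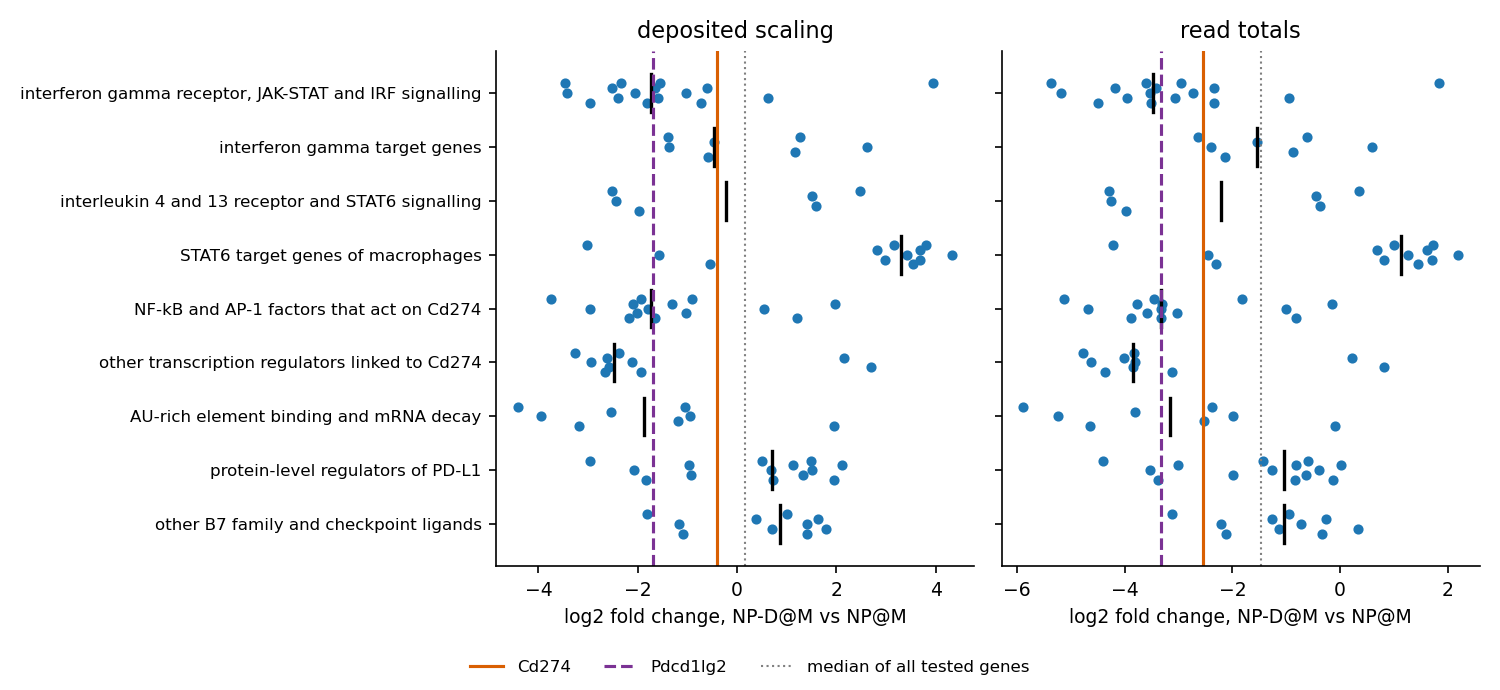
Log2 fold change of each tested gene of 9 lists in NP-D@M against NP@M, on the deposited scaling (left) and recovered read totals (right). Points are genes, black ticks the median of each list, vertical lines mark Cd274, Pdcd1lg2 and the median of all tested genes. The interferon gamma signalling list centres at -1.74 on the left, near Pdcd1lg2 at -1.68, and the STAT6 targets of macrophages at 3.30.

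Of the genes that act on PD-L1 as a protein 14 were tested, and their counts shifted between the scalings as those of all tested genes did (45.2% higher and 46% lower as deposited, 9.12% and 61.7% on read totals). On the deposited scaling 9 were higher and 5 lower with D (median 0.71), and 12 were lower and 0 higher on recovered read totals (median -1.05). Cmtm6, which keeps PD-L1 at the cell surface, was at 29.3 to 43.0 FPKM without D and 50.1 to 61.3 with D. Its log2 fold change was 0.69 on the deposited scaling and -1.43 on recovered read totals. Cmtm3, of the same family, was at 2.11 and 0.02, and the adaptor genes Ndfip1 and Ndfip2 at 1.51 and 1.33, turning to -0.63 and -0.40. Usp22, a deubiquitinase gene linked to PD-L1 stability, was lower on both, at -2.95 and -4.39. Protein was not measured.

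A list of other B7 family, checkpoint ligand and costimulatory genes had 10 tested members. On the deposited scaling 6 were higher, 3 lower and 1 not called (median 0.86), where 45.2% of all tested genes were higher and 46% lower. Lgals9, which encodes galectin-9, rose by 1.80, Pvr, a TIGIT ligand gene, by 1.64 and Cd40, a costimulatory receptor gene of the TNF receptor family, by 1.41, while Icosl, the ICOS ligand gene, fell by 1.82. By recovered read totals 6 were lower and 4 not called. The sign of Lgals9 and Pvr turned, to -0.34 and -0.25, and neither passed the test there. Icosl was lower on both scalings, as was Pdcd1lg2. Of the genes of these lists, 0 were called on the deposited scaling in NP@M against PBS and 0 in NP-D@MP against NP-D@M. Of all tested genes 0.0116% and 0% were called there, so these counts do not set the lists apart.

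Neighbouring genes were read in the same comparison, because Jak2, Plgrkt and the ligands lie in one stretch of chromosome 19. Within 500 kb the table held 13 other genes, of which 11 were tested, 5 higher and 6 lower in NP-D@M than in NP@M (median -1.04). By recovered read totals 1 was higher, 7 lower and 3 not called. Both splits are near those of all tested genes (45.2% higher and 46% lower, then 9.12% and 61.7%). Plgrkt, which encodes a plasminogen receptor, ends 64 bases before the start of Cd274 in the table and is read in the opposite direction. It rose from 4.19 ± 0.807 to 23.7 ± 3.39 FPKM (log2 fold change 2.26), while Cd274 did not pass the test, and on recovered read totals it was at 0.31. In GENCODE 2 of its 10 transcripts start there, and its RefSeq start is 5.58 kb from the start of Cd274 in the table.

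Beyond Plgrkt, Insl6 and Ak3 were higher on the deposited scaling, by 1.47 and 1.92. On recovered read totals both turned sign, to -0.53 and -0.15, and neither passed the test (limma adjusted p = 0.386 and 0.622). Jak2, 54.4 kb from Cd274, Rcl1 and Plpp6 on that side and A930007I19Rik, Ric1 and 9930021J03Rik on the Pdcd1lg2 side were lower on both. Gm10136 was higher on both, at 3.09 and 1.67, and Ermp1 turned from 0.95 to -0.72. Ratios within a library, chosen after the values were seen and given with no test, show how the stretch changed. Cd274 exceeded Plgrkt by 11.6 to 37.2 times without D and 1.63 to 2.94 times with D. It exceeded Jak2 by 3.82 to 5.51 times without D and 13.4 to 29.1 times with D. The 2 highest ratios of Cd274 to Plgrkt, 37.2 and 33.8, were those of the libraries that stood apart.

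**Figure D5:**
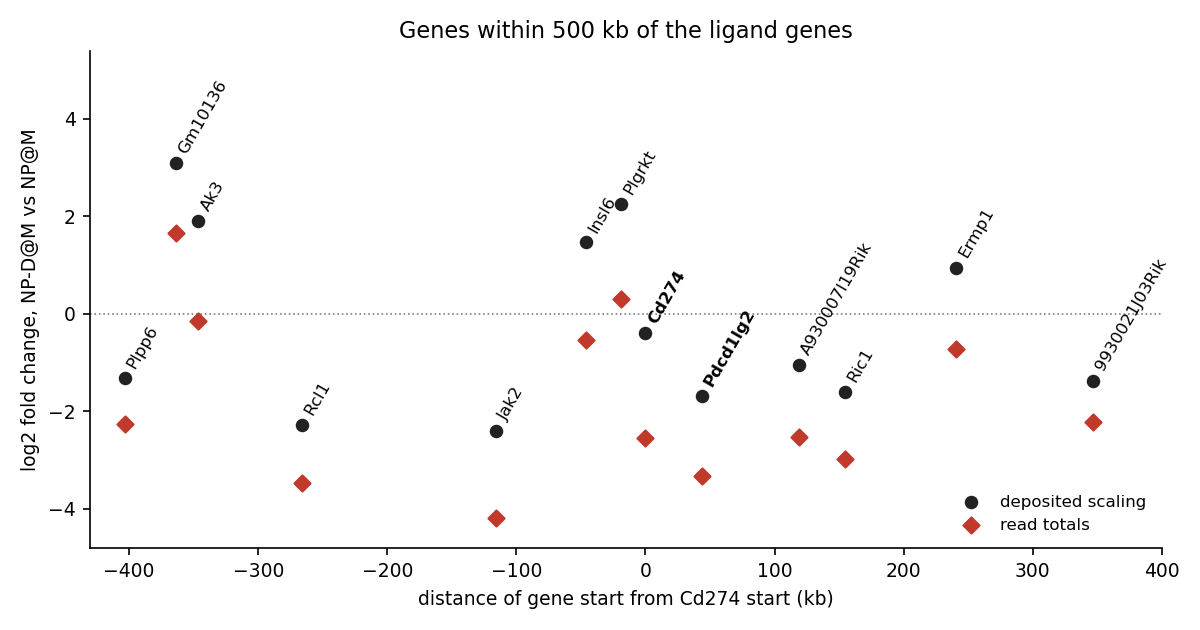
Log2 fold change of Cd274, Pdcd1lg2 and 11 neighbouring genes in NP-D@M against NP@M, against the distance of each gene's start from that of Cd274 in kb. Black circles are the deposited scaling and red diamonds recovered read totals. Plgrkt, next to Cd274, was at 2.26 and Jak2 at -2.39 on the deposited scaling.

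The genes whose profiles were most like each ligand differed. Likeness was Pearson's r of log2(FPKM + 1) over the 12 libraries, which share their scaling and fall into libraries with and without D, among 3489 genes with a mean of at least 5 FPKM. For Cd274 these were Copb1 (0.968), Slc7a11 (0.963), Aldh3a2, Mfsd14b and Chst11 (each 0.958), against a median r of -0.686. For Pdcd1lg2 they were Yars (0.981), Creb3 (0.978), Pwp1 (0.977), Csnk1d (0.977) and Rgs19 (0.976), against a median of -0.864. With read totals, Chst11 was again among the 5 for Cd274, with Lgals8, Rab6a, Wdr26 and Mob1a. Yars and Creb3 were again among those for Pdcd1lg2, with Wars, Cnbp and Tes. Between the ligands themselves r was 0.719 over all libraries, -0.128 within the 6 without D and 0.456 within the 6 with D. It was 0.971 over all libraries on recovered read totals. Within either set of 6 libraries, r was lower than over all 12.

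Markers of the cell types the samples could hold moved with D. The summed FPKM of 12 monocyte and macrophage markers ranged from 2786 to 4086 without D and from 30597 to 41068 with D, with none at 0. Of the 11 tested, 10 were higher and 1 lower in NP-D@M than in NP@M, and on recovered read totals 6 were higher and 3 lower. Beside these counts and those of neutrophil markers below, 45.2% of all tested genes were higher and 46% lower on the deposited scaling. On recovered read totals 9.12% of all tested genes were higher and 61.7% lower. Lyz2 and Cd68 of the macrophage list were named here after their values were seen. Their means were 2158 and 304 FPKM in the NP@M libraries, against 27281 and 4251 in NP-D@M. Lyz2 alone made up most of the macrophage sum in both groups. For dendritic cells 10 of 12 markers were in the table, summing to 333 to 570 FPKM without D and 1860 to 2134 with D, and Flt3 was at 0 in NP-D@MP. For neutrophils 10 of 12 were in the table, summing to 483 to 1421 without D and 1068 to 3236 with D, although 4 of the 10 tested were lower and 2 higher in NP-D@M than in NP@M. The neutrophil sum was lower in NP-D@M on recovered read totals, at 1117 to 3322 RPKM without D, 563 to 926 in NP-D@M and 948 to 1578 in NP-D@MP, with 9 members lower and 0 higher.

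Of 7 T and NK cell markers 2 were in the table, summing to 0.139 to 0.447 FPKM without D and 2.09 to 3.76 with D. Of 4 B cell markers 1 was, at most at 0.144 FPKM and at 0 in NP-D@MP, and of 6 retina markers 0. Myeloid markers were thus detected. How the genes of the table were selected is not given, so markers missing from it do not show that a cell type was absent. The conflict between the immune cell label and the retina protocol was not settled. Cd274 and Pdcd1lg2 are expressed by macrophages and dendritic cells, whose summed markers were higher with D on the deposited scaling. The dendritic cell markers are given as a sum only, without counts of members higher or lower. The macrophage sum was 6448 to 8945 RPKM without D and 16132 to 19817 with D on recovered read totals, and the dendritic cell sum was 770 to 1340 and 907 to 1055, which overlap. The part of cell makeup in the ligand values was not tested.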

How the data were processed

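Total RNA of 12 libraries was sequenced from Illumina TruSeq libraries, per the labels' protocols. Bowtie 0.12.2 and build mm8 appear, with no role, in the submitters' processing notes, while the positions in the table match GRCm38. Recovered counts (reads) served the alternatives. The authors deposited 1 table of FPKM values. The header names no unit, so FPKM was read from the values: value times gene length gave whole reads in 100% of values (tolerance 0.05). The origin of the authors' scaling factor and the selection of the table's genes are not given in the sources used here, and p-values hold only among these genes. Genes with at least 1 FPKM in 3 libraries (8615) were tested on log2(FPKM + 1) with limma 3.58.1 (R 4.3.3, trend and robust options, 4 group means over 12 libraries). P-values were 2-sided and adjusted per comparison by the Benjamini-Hochberg method over all tested genes, for 5 comparisons, with the threshold at 0.05. The within-library ratio was tested by exact permutation (scipy 1.17.1). The fit was tested on simulated data in which few genes changed and each library was scaled by its own total. These data differ in both respects, so that test does not bear on how calls depend on the scaling. Named genes are the ligands, their partners, named regulators and neighbours, up to 4 genes of smallest adjusted p per list, and the 5 genes most like each ligand; 2 genes that this rule names are not reported here, though the list counts include them. The ligands and the lists were chosen with earlier results of these data known. Alternatives were recovered read totals, median of ratios, equal medians, quantile normalization, no or a stricter filter, a pseudocount of 0.1, no trend, 6 libraries alone, voom and leaving out each library. With both scaled to a geometric mean of 1, the deposited library sizes were close to median of ratios sizes. They were 0.991 to 1.04 times these without D and 0.972 to 1.01 times with D. The median of ratios alternative therefore nearly repeats the deposited scaling. Leaving out both libraries that stood apart on read totals was added after seeing the data.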

Additional observations from a re-analysis of the deposited data

How the results depend on the processing

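Every Pdcd1lg2 comparison kept its direction and its side of the threshold under all alternatives run. For Cd274 in NP-D@M against NP@M the log2 fold change passed the threshold on recovered read totals (-2.54), after quantile normalization (-2.43), with voom on recovered reads (-2.57) and on recovered read totals without both libraries that stood apart (-2.33), and turned sign with equal medians (0.000994). In NP-D@M against PBS the corresponding values were -2.49, -2.39, -2.53, -2.24 and 0.0194, and -0.61 without PBS replicate 1. In NP-D@MP against PBS it no longer passed with equal medians (-0.53). The cause was not tested. Leaving out 1 library at a time, Cd274 ranged from -0.21 to 0.30 in NP@M against PBS, -0.52 to -0.19 in NP-D@M against NP@M, -0.61 to -0.10 in NP-D@M against PBS and -1.13 to -0.63 in NP-D@MP against PBS. The log2 ratio of Pdcd1lg2 to Cd274 ranged from -0.0726 to 0.61 in NP@M against PBS and from -0.55 to 0.20 in NP-D@MP against NP-D@M, where a pseudocount of 1 also turned it, to 0.105.

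Among other named genes, 33 of 891 values turned sign in NP-D@M against NP@M, 26 no longer passed and 832 held; the sign turned in 11 genes. On recovered read totals, voom on recovered reads and read totals without both libraries that stood apart, in that order, the values were -1.27, -1.38 and -1.14 for Cd80, -1.43, -1.46 and -1.26 for Cmtm6, and -0.72, -0.91 and -0.47 for Ermp1. They were -0.62, -0.69 and -0.47 for Gbp2, -0.53, -0.57 and -0.76 for Insl6, and -0.34, -0.34 and -0.39 for Lgals9. They were -0.63, -0.64 and -0.59 for Ndfip1, -0.40, -0.49 and -0.24 for Ndfip2, and -0.25, -0.29 and -0.21 for Pvr. Ak3 turned on the first 2 (-0.15 and -0.16) and Cmtm3 on the last (-0.20). Quantile normalization turned Cmtm6 (-1.06), Lgals9 (-0.29) and Ndfip1 (-0.70). The turned values of Ak3, Cmtm3, Insl6, Lgals9 and Pvr did not pass the test, nor did Ndfip2 on read totals without both libraries that stood apart. Depth limits Pdcd1lg2 with D, at 9 to 42 reads. No paired analysis was possible because the labels number the libraries in one run and the groups share no replicate number.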
